A study of Mus musculus with 34 samples.

Results

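HF4 mice were set against HF0 mice on 4 of the 34 two-colour arrays of the series, chosen because their titles pair these groups. Experiments 1 and 2 each held one dye swap of the pairing, that is 2 arrays with the dyes exchanged. All arrays measured epididymal fat, the abdominal fat depot beside the testis, in mice. HF4 mice were the offspring of HF3 mice and HF0 mice the offspring of mice on normal diet (STD); both groups ate the high fat diet, so HF4 differs from HF0 in how many generations had eaten it. Trizol served for the RNA extraction in experiment 1 and Qiagen reagents in experiment 2. The number of animals in an extract is not stated in the labels. Experiment 1 held 12 arrays with STD, HF0, HF3 and HF4, and experiment 2 held 22 arrays that also included HF1 and the reversal groups HF1-REV, HF3-REV and HF4-REV.

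Each value below is a log2 ratio of HF4 over HF0, coded as Cy5 over Cy3 and centred on the median of the array. The sources used here do not give the numerator of the deposited ratio. A positive value therefore stands for more RNA in HF4 if Cy5 was the numerator and for less if Cy3 was, and only the contrast between positive and negative genes holds on both readings. The 4 arrays of a gene are given as experiment 1 with HF4 in Cy5 and then in Cy3, followed by experiment 2 with HF4 in Cy5 and then in Cy3. The fitted value is the limma estimate over all 34 arrays with its SE (n = 2 experiments), and a gene passed at an adjusted p under 0.05 over 22879 features. The SE leaves out any disagreement between the pairings within an experiment. Genes and lists were named with earlier results of these data known.

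White fat stores triglyceride in adipocytes, which also secrete hormones such as leptin and adiponectin, and it holds blood vessels, connective tissue and resident immune cells whose number changes with obesity. Sperm are made in the testis from spermatogonia, which pass through meiosis and then, as spermatids, replace their histones with transition proteins and protamines and build the acrosome and the tail. Spermatid transcripts are typical of the testis, which lies beside the epididymal fat pad together with the epididymis. In bulk tissue, fewer cells of a type and less RNA per cell cannot be told apart. The log ratios hold no levels, so adipocyte markers could not be checked for presence.

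The pairings of experiment 1 did not add up, for fat and immune genes in HF4 over HF0 and for sperm genes in some other pairings. The difference of HF4 and HF0 can be read from the arrays that hold both, here called direct, or from the other pairings of the same experiment, here called indirect. Over the 164 measured genes of the fat lists the direct and indirect values correlated with r = -0.33 in experiment 1 and r = 0.65 in experiment 2. Over the 150 genes of the immune lists r was -0.45 and 0.71, and over the 152 genes of the sperm lists it was 0.94 and 0.96. The sperm genes did not add up on every other path of experiment 1: direct HF4 over HF3 ran against the path through HF0 (r = -0.72), and HF3 over HF0 against the path through STD (r = -0.32). In experiment 2 all 12 paths gave a positive r for the sperm genes, from 0.23 to 0.96. These correlations run across genes that share arrays and are given as descriptions. Of the fat genes, 97 of 164 had opposite signs in the direct and indirect values of experiment 1, and 45 of 164 in experiment 2, against 45.5% and 33.4% of all features. Of the immune genes, 67 of 150 and 41 of 150 had opposite signs, which is not above the shares of all features. For the immune genes as a class the conflict thus shows in r and not in the count of signs. Whether the pairings of experiment 1 held the same RNA of each group was not tested. Direct and indirect values are therefore given for most of the fat and immune genes named, in the order of experiments 1 and 2, beside the fitted value, which draws on both.

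**Figure D1:**
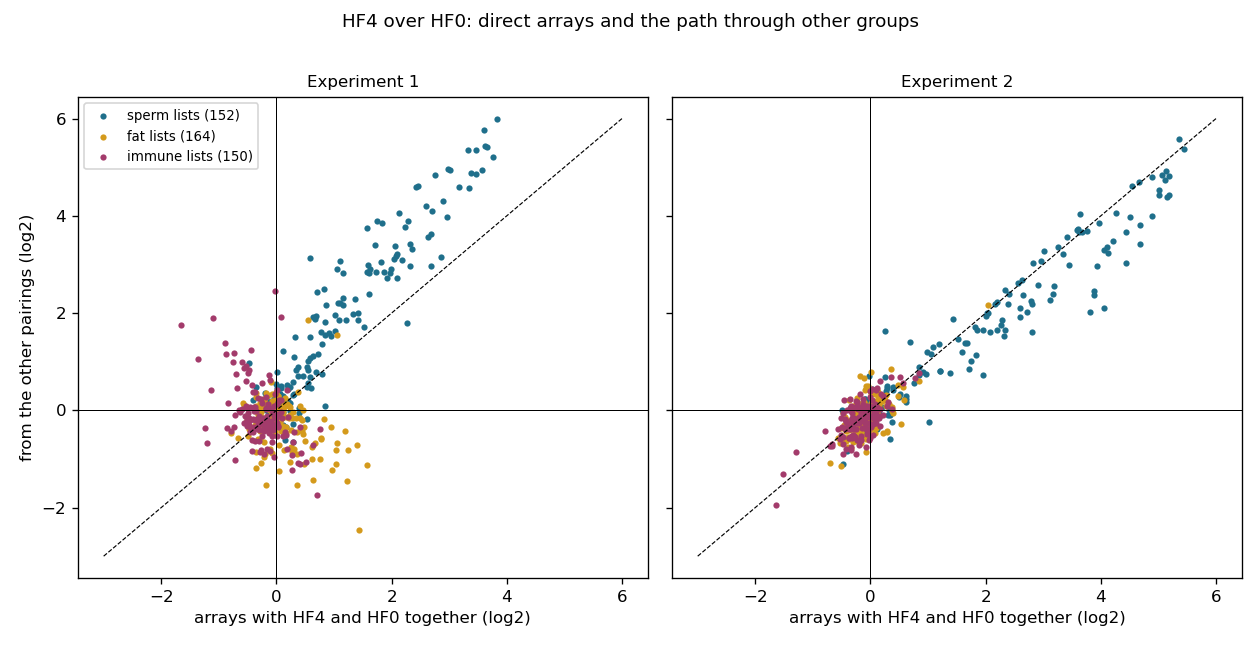
Direct value (horizontal axis, mean of the dye swap, log2) against the indirect value (vertical axis, log2) of HF4 over HF0 for genes of the sperm, fat and immune lists, in experiment 1 (left) and experiment 2 (right), with the dashed line marking equal values. Sperm genes follow the line's direction in both experiments (r = 0.94 and 0.96), while fat genes run against it in experiment 1 (r = -0.33).

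Sperm transcripts stood on the positive side in both experiments and included the most positive genes of the table. Of 168 listed sperm genes 152 were measured, and 82 of them passed on the positive side and 0 on the negative side, against 4.19% of all features on the positive side and 0.0175% on the negative side. The 82 were 53.9% of the measured list. All 4 arrays were positive for 98 of the 152, against 9.82% of all features. The median of the class was 0.78 and 0.80 on the arrays of experiment 1 and 1.60 and 1.84 on those of experiment 2, while the median of all features lay between -0.01 and 0.02 on the same arrays. The median fitted value was 1.49, against -0.03 for all features. The direct values were larger in experiment 2 for 118 of the 152 genes, against 48.1% of all features, and for 79 of the 82 that passed. The indirect values had the other order, with class medians of 1.68 in experiment 1 and 1.43 in experiment 2, so no difference in size between the experiments is read from the direct arrays.

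The most positive gene was Clec2m, a C-type lectin family member. Its arrays had 4.03 and 3.62 in experiment 1 and 4.97 and 5.91 in experiment 2, and its fitted value was 5.16 ± 0.37 (adjusted p = 0.00554). Pdcl2, a phosducin-like gene of spermatids, had 3.63, 3.57, 5.39 and 4.88 (fitted 4.86 ± 0.34, adjusted p = 0.00554). For both genes every array of experiment 2 lay above every array of experiment 1, and this separation held for 25.1% of all features in one direction or the other. Their indirect values were 6.00 and 5.38 for Clec2m and 5.77 and 4.93 for Pdcl2, and so larger in experiment 1.

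**Figure D2:**
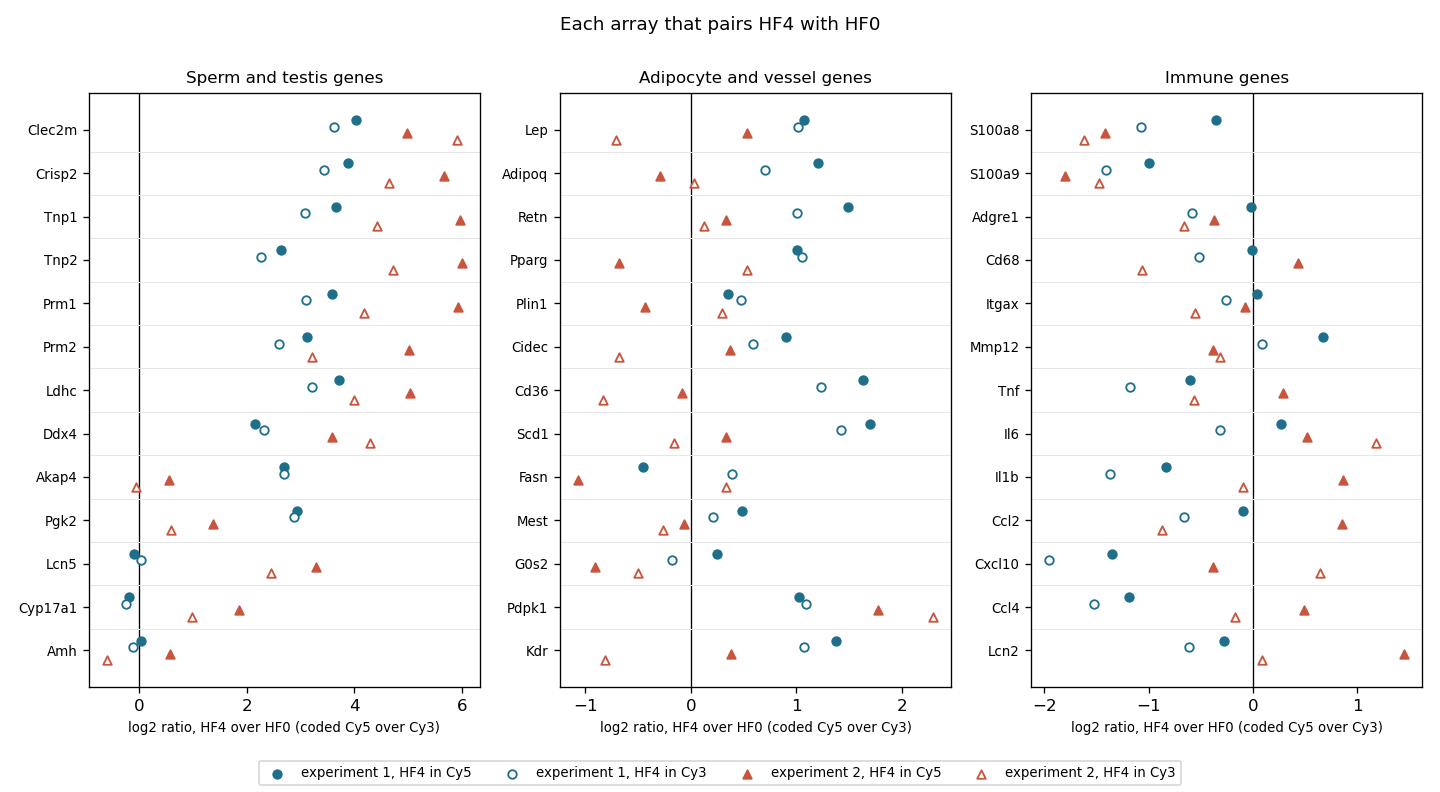
Log2 ratio of HF4 over HF0 (horizontal axis) on each of the 4 arrays for named sperm and male tract genes (left), adipocyte and vessel genes (middle) and immune genes (right). Circles are experiment 1, triangles experiment 2, filled symbols HF4 in Cy5 and open symbols HF4 in Cy3; Clec2m reaches 5.91, while Lep, Scd1 and Cd36 are positive in experiment 1 and near or below 0 on at least one array of experiment 2.

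The genes of sperm chromatin were among them. Tnp1 and Tnp2 encode the transition proteins that displace histones, and Prm1 and Prm2 the protamines that then compact the DNA. Tnp1 had 3.66 and 3.09 in experiment 1 and 5.96 and 4.41 in experiment 2 (fitted 4.56 ± 0.86, adjusted p = 0.0428). Tnp2 had 2.64, 2.27, 6.00 and 4.71 (fitted 4.50 ± 0.88, adjusted p = 0.0483), a call that a robust prior ended (adjusted p = 0.0504). Prm1 had 3.57, 3.11, 5.93 and 4.18 (adjusted p = 0.0292). All of these values were positive, and Tnp2 had dye swap means of 2.46 and 5.35 in the experiments and indirect values of 4.62 and 5.58. H1f7, a linker histone of spermatids, passed at 4.37 ± 0.69 (adjusted p = 0.0233). Of the 14 measured genes of the list 7 passed, with a median fitted value of 1.15. A test against a change of at least 0.5 log2 ended the calls of Tnp1, Tnp2 and Prm1 (adjusted p = 0.0828, 0.0928 and 0.058), of Piwil1 (0.0765) and of Dazl (0.0968).

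Genes of meiosis and of piRNA control, which silences transposons in germ cells, passed in 16 of 28 cases (median 1.35). Mael, a piRNA pathway gene, had 3.91, 3.61, 5.02 and 5.01 (fitted 4.60 ± 0.58, adjusted p = 0.0122). Piwil1, which encodes a PIWI protein that binds piRNAs, had 1.76 and 1.89 in experiment 1 and 4.31 and 4.55 in experiment 2 (fitted 3.29 ± 0.59, adjusted p = 0.0355). Its dye swap means differed by 2.61 between the experiments, but its indirect values were 3.85 in experiment 1 and 3.03 in experiment 2, the other way round. Quantile normalization ended its call (adjusted p = 0.155). Ddx25, an RNA helicase of spermatids, and Syce1, of the synaptonemal complex that joins meiotic chromosomes, passed at 3.50 ± 0.31 and 3.72 ± 0.52 (adjusted p = 0.00733 and 0.0169).

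Genes of the acrosome and sperm surface gave the largest share of calls, 19 of 26, and all 26 had a positive fitted value (median 1.65), against 42.5% of all features. Crisp2, a protein of the acrosome and tail, had 3.88 and 3.43 in experiment 1 and 5.66 and 4.63 in experiment 2 (fitted 4.65 ± 0.19, adjusted p = 0.00486). Its SE was the smallest among the 10 most positive genes. The sperm surface genes Adam3 and Adam2, needed for sperm migration and egg contact in mice, passed at 4.19 ± 0.51 and 3.87 ± 0.44 (adjusted p = 0.0118 and 0.0101). Spaca1, an acrosomal membrane gene, passed at 3.41 ± 0.25 (adjusted p = 0.00554). Acr, which encodes the acrosomal protease acrosin, had 0.56, 0.70, 2.92 and 1.74 and did not pass (fitted 1.63 ± 0.33, adjusted p = 0.0536).

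Of 32 sperm tail genes 17 passed (median 1.80). Ropn1l, of the fibrous sheath, had 3.54, 3.11, 5.27 and 4.96 (fitted 4.63 ± 0.52, adjusted p = 0.0101), and the outer dense fibre genes Odf2 and Odf1 passed at 4.02 ± 0.45 and 3.24 ± 0.26. The enzymes that supply energy to sperm had the highest list median, 2.23, with 7 of 12 genes past the threshold. Ldhc, the lactate dehydrogenase of germ cells, had 3.71, 3.21, 5.02 and 4.0 (fitted 4.20 ± 0.61, adjusted p = 0.0187). Adcy10, the soluble adenylyl cyclase that sperm need for motility, had 2.22, 2.42, 3.68 and 4.09 (adjusted p = 0.00986). Of 26 spermatid kinases and regulators 15 passed (median 1.57), among them Spz1, a transcription factor gene of the testis, at 4.63 ± 0.45.

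**Figure D3:**
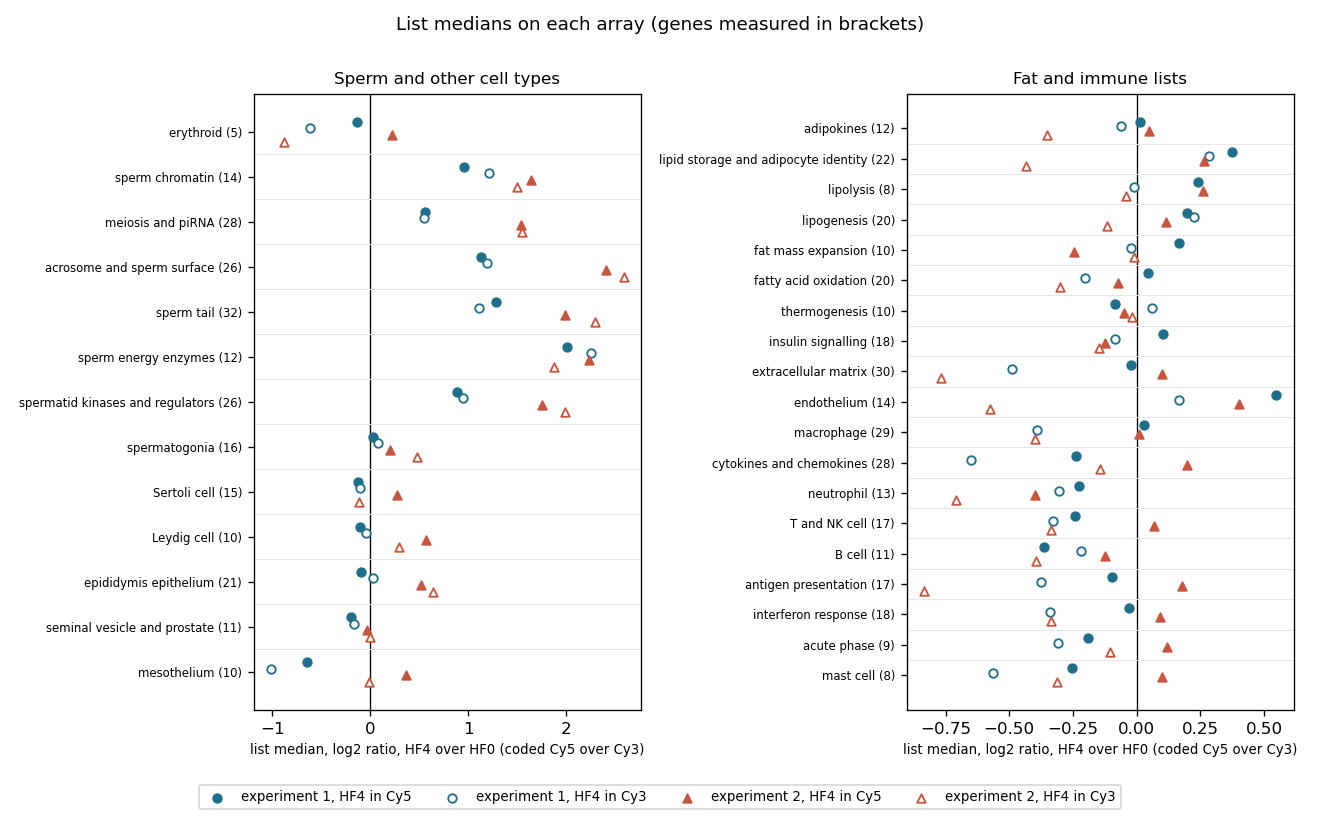
Median log2 ratio of HF4 over HF0 (horizontal axis) of each gene list on each of the 4 arrays, with sperm and other cell type lists on the left and fat and immune lists on the right, on different scales. Circles are experiment 1 and triangles experiment 2; the acrosome list reaches 2.58 on the array of experiment 2 with HF4 in Cy3, whereas Sertoli cell and seminal vesicle lists stay near 0.

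A few spermatid genes differed between the experiments on the direct arrays. Akap4 and Pgk2 met the naming rules, and Dkkl1 was singled out after its values were seen. Akap4, the main protein of the fibrous sheath, had 2.68 and 2.70 in experiment 1 but 0.56 and -0.05 in experiment 2 (fitted 1.88 ± 0.41, adjusted p = 0.0737). Pgk2, the phosphoglycerate kinase of spermatids, had 2.93, 2.87, 1.38 and 0.58 (adjusted p = 0.287). Both were larger in experiment 1, with no overlap between the experiments, as 34 of the 152 genes were larger there by their means. The indirect values of experiment 2 were 1.62 for Akap4 and 1.19 for Pgk2. Dkkl1, an acrosomal gene, showed the reverse, with 0.71 and -0.80 in experiment 1 and 3.53 and 3.36 in experiment 2 (adjusted p = 0.441).

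Of the 82 sperm genes that passed, 66 had a promoter in the RefSeq table of build GRCm38.p6. The 250 bases before the start were searched on both strands for the full cAMP response element TGACGTCA, which CREM binds in spermatids, and for its core TGACG, which lies within it. The full element was found in 2 of the 66 (3.03%) and in 1.62% of all 27025 promoters of that length, and the core in 14 of the 66 (21.2%) and in 17.9% of all promoters. Both shares were near those of all promoters. The promoter of the sperm-egg fusion gene Izumo1 is shown because it is one of the 2 with the full element, and that of Ldhc because it holds the core at 2 places, with matches in capitals. Izumo1 (arrays 1.17, 1.26, 2.23 and 3.22, adjusted p = 0.0146) lies at chr7:45621561-45621810 and Ldhc at chr7:46861013-46861262, both on the plus strand and read 5′ to 3′.
Izumo1: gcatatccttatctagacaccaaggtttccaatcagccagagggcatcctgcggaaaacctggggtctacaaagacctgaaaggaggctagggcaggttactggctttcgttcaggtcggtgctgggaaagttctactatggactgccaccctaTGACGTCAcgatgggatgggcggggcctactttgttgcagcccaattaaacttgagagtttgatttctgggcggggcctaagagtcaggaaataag
Ldhc: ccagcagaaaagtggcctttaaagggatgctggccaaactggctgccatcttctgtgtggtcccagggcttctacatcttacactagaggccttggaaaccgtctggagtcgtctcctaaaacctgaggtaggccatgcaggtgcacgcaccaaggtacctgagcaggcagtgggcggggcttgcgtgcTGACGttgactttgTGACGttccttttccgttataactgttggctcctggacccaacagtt

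Other cells of the male tract did not follow the spermatids to the same extent. Of 16 spermatogonial genes 3 passed, all of them also known from later germ cells: the germ cell helicase Ddx4 at 3.23 ± 0.24, the RNA-binding protein gene Dazl at 1.21 ± 0.17 and Taf7l at 0.78 ± 0.12 (adjusted p = 0.006, 0.016 and 0.0209). Taf7l missed the threshold without experiment 2 replicate 1 (adjusted p = 0.0999) and against a change of at least 0.5 log2 (adjusted p = 0.651). The list's median was 0.12. Sertoli cell markers, for the cells that nurse the germ cells, passed in 0 of 15 cases (median -0.06). Among their defining genes, Amh had 0.03, -0.12, 0.57 and -0.60 and Fshr had -0.26, -0.21, -0.04 and -0.20. Fshr was negative on all 4 arrays, and Amh changed side with the dye order in both experiments. The list also held Aard, with 0.79, 0.70, 1.71 and 1.35 (fitted 1.33 ± 0.38, adjusted p = 0.193), and Tsx, with 0.04, 0.10, 0.70 and 0.97 (adjusted p = 0.117), both positive on all 4 arrays.

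The markers of Leydig cells, which make testosterone, and of the epididymis had direct medians near 0 in experiment 1 and positive ones in experiment 2. Their indirect medians were positive in both experiments, 0.54 and 0.44 for Leydig cells and 0.51 and 0.58 for the epididymis. Leydig markers had medians of -0.10 and -0.05 on the arrays of experiment 1 and 0.56 and 0.30 on those of experiment 2, and 0 of 10 passed. Cyp17a1, an enzyme of androgen synthesis, had -0.19 and -0.25 in experiment 1 and 1.85 and 0.99 in experiment 2 (fitted 0.75 ± 0.19, adjusted p = 0.119). Epididymal markers had medians of -0.10, 0.03, 0.52 and 0.64, with 0 of 21 past the threshold. Fitted values were positive for 19 of these 21 and for 7 of the 10 Leydig markers, against 42.5% of all features. Over the 10 group values other than HF4, 17 of the 21 and 5 of the 10 correlated above 0.5 with the mean of the sperm genes. The share of all features was 12.0%, and these values share arrays. The 10 values include HF0 of each experiment, set to 0. In the STD extract of experiment 2 the epididymal median over HF0 was 4.46, and in the other groups it lay between -0.26 and 1.15. How far this 1 extract sets the r of the epididymal genes was not tested. Lcn5, a lipocalin of the epididymis, had -0.10, 0.03, 3.28 and 2.45 (adjusted p = 0.323). The indirect value of Cyp17a1 in experiment 1 was 0.96 and that of Lcn5 was 1.69, so the other pairings of experiment 1 gave positive values where the direct arrays did not. Seminal vesicle and prostate markers had a median of -0.05, with 0 of 11 past the threshold. Whether testis or epididymis tissue entered an extract was not tested.

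**Figure D4:**
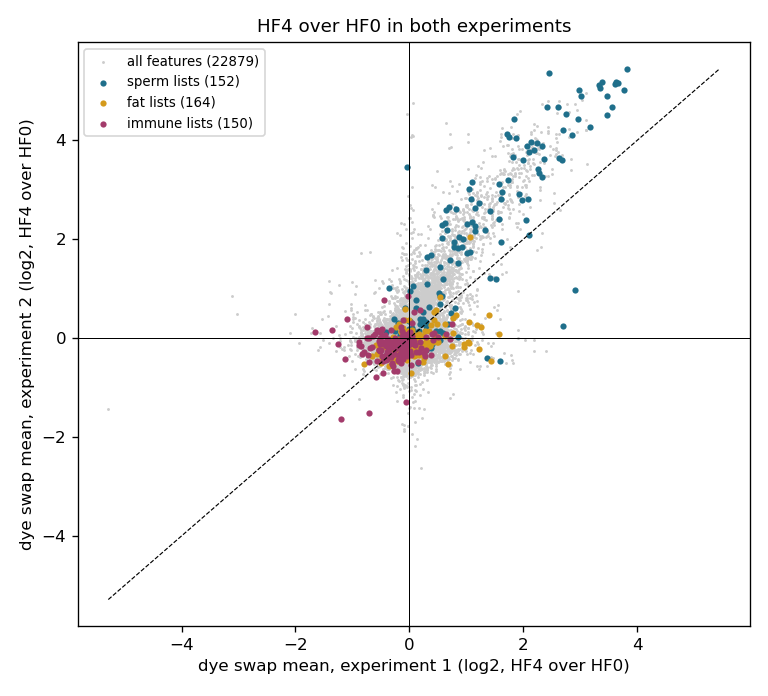
Dye swap mean of HF4 over HF0 (log2) in experiment 1 (horizontal axis) against experiment 2 (vertical axis) for all 22879 features (grey) and for the genes of the sperm, fat and immune lists, with the dashed line marking equal values. Most sperm genes lie above the dashed line, with class medians of 0.81 in experiment 1 and 1.73 in experiment 2, while fat and immune genes spread along the axis of experiment 1 more than along that of experiment 2.

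Across all features the dye swap means of the experiments correlated with r = 0.67 and had the same sign for 58.2%. Over the sperm genes r was 0.87 and 125 of 152 had the same sign. Over the fat genes r was 0.41 with 93 of 164, and over the immune genes 0.16 with 103 of 150. The turned arrays of one dye swap correlated with r = 0.36 in each experiment over all features, below the 0.60 and 0.64 of arrays with the same dye order in different experiments. Over the sperm genes the dye swaps gave 0.91 and 0.89. Values over all features thus moved with the dye order, and each fat or immune gene is read from both arrays of a swap.

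On the direct arrays the fat genes as a class showed no common side. Adipocyte storage, lipogenic and endothelial genes were more often positive than negative on those of experiment 1. Of 179 listed fat genes 164 were measured. Fitted values were negative for 113 of the 164, against 57.5% of all features, with a median of -0.11 against -0.03. Of the 164 genes, 55 were positive on both arrays of experiment 1, against 25.1% of all features, and 44 negative on both, against 24.4%. In experiment 2, 15 were positive on both arrays, against 18.2%, and 33 negative, against 17.9%. One gene, Pdpk1, passed on the positive side and 1, G0s2, on the negative side. The part of the sperm transcripts' difference in the fat gene values was not tested. All 4 arrays were positive for 10 of the 164 genes and negative for 10, against 9.82% and 5.36% of all features. The class median was 0.11 and -0.08 in experiment 1 and 0.11 and -0.30 in experiment 2, so that it followed the dye order more than the experiment.

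Among the adipokines, Lep, the satiety hormone leptin, had 1.07 and 1.02 in experiment 1 and 0.53 and -0.71 in experiment 2. Its indirect values were -0.82 and 0.42, and its fitted value was 0.14 ± 0.12 (adjusted p = 0.852). Adipoq, which encodes adiponectin, had 1.20, 0.71, -0.29 and 0.03 (indirect -0.35 and -0.24, fitted 0.06 ± 0.26). Retn, which encodes resistin, was the adipokine positive on all 4 arrays, with 1.49, 1.01, 0.34 and 0.12, but its indirect value in experiment 1 was -0.81 (fitted 0.22 ± 0.12, adjusted p = 0.646). Adm, adrenomedullin, was negative on all 4 arrays between -0.61 and -0.17. Of the 12 adipokine genes, 4 were positive and 5 negative on both arrays of experiment 1. In experiment 1 the direct values of Lep, Adipoq and Retn thus had the sign opposite to the indirect ones.

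Lipid storage genes had list medians of 0.37 and 0.28 on the arrays of experiment 1 and an indirect median of -0.28 there, with 0 of 22 genes past the threshold. On both arrays of experiment 1, 12 of the 22 were positive and 4 negative. Pparg, the master regulator of adipocyte formation, had 1.00, 1.05, -0.68 and 0.54, and indirect values of -1.11 and 0.49. Cd36, the fatty acid transporter, had 1.63 and 1.24 in experiment 1 and -0.09 and -0.83 in experiment 2 (indirect -2.45 and -0.31). Its direct and indirect values in experiment 1 lay further apart than those of the other fat genes named here. The lipid droplet genes Plin1 and Cidec had 0.35, 0.47, -0.44 and 0.29 for Plin1 and 0.90, 0.59, 0.37 and -0.68 for Cidec, with indirect values of -0.17 and -0.01 and of -1.01 and -0.40. Lpin1, a phosphatidate phosphatase, was positive on all 4 arrays (0.85, 0.79, 0.74 and 0.20, indirect -0.18 and 0.28, fitted 0.35 ± 0.27, adjusted p = 0.817). Agpat2, an acyltransferase of triglyceride synthesis, was positive on all 4 direct arrays, but its indirect values were -0.35 and -0.43 and its fitted value was near 0 (adjusted p = 1). Cebpb, a transcription factor of adipocyte formation, was negative on all 4 arrays and in both indirect values, -1.18 and -0.56 (fitted -0.66 ± 0.42, adjusted p = 0.727).

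In lipolysis, G0s2, an inhibitor of the triglyceride lipase, was the fat gene past the threshold on the negative side. Its arrays had 0.25, -0.18, -0.91 and -0.50 and its indirect values were -1.24 and -1.09 (fitted -0.75 ± 0.14, adjusted p = 0.0436). The lipase genes Pnpla2 and Lipe and the phosphodiesterase gene Pde3b were positive on all 4 arrays, with indirect values of -0.42 and -0.01 for Lipe and 0.01 and 0.47 for Pde3b. Pnpla2 had 0.86, 0.68, 0.60 and 0.20, with indirect values of -0.58 and -0.06 (fitted 0.13 ± 0.29, adjusted p = 0.964). The call for G0s2 was lost without experiment 1 replicate 2 (adjusted p = 0.0792), without experiment 2 replicate 2 (adjusted p = 0.0609) and under quantile or scale normalization (adjusted p = 0.0644 and 0.0624).

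Of 20 lipogenic genes 0 passed, and 9 were positive and 1 negative on both arrays of experiment 1, against 25.1% and 24.4% of all features. In experiment 2, 3 were positive and 3 negative on both arrays. Scd1, the main fatty acid desaturase of fat, had 1.70, 1.43, 0.33 and -0.16, and indirect values of -1.12 and -0.46 (fitted 0.02 ± 0.35). Thrsp, a lipogenic nuclear protein, had 1.47, 1.31, 0.96 and -0.01 (indirect -0.71 and 0.51, fitted 0.42 ± 0.19, adjusted p = 0.513). Fasn, fatty acid synthase, had -0.45, 0.39, -1.07 and 0.33, negative with HF4 in Cy5 and positive with HF4 in Cy3 in both experiments. Mest, a marker of fat mass expansion, had 0.49, 0.21, -0.06 and -0.26 (indirect -0.44 and -0.27), and the brown fat gene Ucp1 had -0.02, -0.05, 0.33 and -0.07. The fat mass expansion and thermogenesis lists had median fitted values of -0.05 and 0.04, with 0 of 10 genes past the threshold in each.

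Fatty acid oxidation genes had negative fitted values for 16 of 20, against 57.5% of all features (median -0.21), and 0 passed. Cpt1b, the muscle form of the mitochondrial fatty acid gate, stood apart with 0.80, 0.29, 0.91 and 0.77 (indirect 1.85 and 0.59, fitted 0.96 ± 0.19, adjusted p = 0.0539). In insulin signalling Pdpk1, the kinase that activates AKT, had 1.02, 1.09, 1.78 and 2.30 and passed (indirect 1.54 and 2.16, fitted 1.70 ± 0.25, adjusted p = 0.02). Over the 10 group values other than HF4, Pdpk1 correlated with the mean of the sperm genes at r = 0.88 and Cpt1b at r = 0.65. Cpt1b was the 1 fatty acid oxidation gene of 20 above 0.5, against 12.0% of all features. Both r are given as descriptions of values that share arrays. A test against a change of at least 0.5 log2 ended the call of Pdpk1 (adjusted p = 0.071).

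Vessel genes differed between the experiments on the direct arrays, with dye swap medians of 0.29 and -0.09, while connective tissue genes differed by dye order. Of 14 endothelial genes 10 were positive on both direct arrays of experiment 1, against 25.1% of all features, but the indirect median there was -0.88. Kdr, a VEGF receptor, had 1.38, 1.08, 0.38 and -0.81, and indirect values of -1.45 and -0.37. All 30 measured extracellular matrix genes had a negative fitted value, against 57.5% of all features, and 0 passed (median -0.22). On the arrays their median was -0.02 and 0.10 with HF4 in Cy5, and -0.49 and -0.77 with HF4 in Cy3. Col15a1, a basement membrane collagen, was negative on all 4 arrays, just below 0 on the first and -0.43, -0.02 and -0.90 on the others (fitted -0.48 ± 0.11, adjusted p = 0.0864). Averaged over each dye swap, which holds both orders once, the matrix median was -0.25 in experiment 1 and -0.23 in experiment 2.

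Mesothelial genes, for the cells that line the fat pad, had direct medians of -0.64 and -1.01 in experiment 1 and an indirect median of 1.19 there, while experiment 2 gave 0.36 and -0.02. All 10 of their genes had direct and indirect values of opposite sign in experiment 1, against 45.5% of all features.

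Immune genes lay slightly on the negative side. Of 164 listed genes 150 were measured, and 120 of these had a negative fitted value, against 57.5% of all features, and 0 passed limma's test in either direction. All 4 arrays were negative for 24 of the 150, against 5.36% of all features, and positive for 1, the nitric oxide synthase gene Nos2 (fitted 0.02 ± 0.34). The class median was -0.14 and -0.38 on the arrays of experiment 1 and 0.06 and -0.37 on those of experiment 2, and was lower with HF4 in Cy3 in both experiments. The median fitted value was -0.18.

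The most negative fitted values of the immune lists belonged to the neutrophil calgranulins. S100a9 had -1.0 and -1.41 in experiment 1 and -1.80 and -1.47 in experiment 2 (fitted -1.37 ± 0.30, adjusted p = 0.0758), and S100a8 had -0.36, -1.07, -1.41 and -1.62 (fitted -1.14 ± 0.26, adjusted p = 0.0888). Their indirect values were negative in both experiments as well, -0.67 and -1.95 for S100a9 and -1.02 and -1.30 for S100a8. The low values were not particular to HF4. In experiment 2 every other group also lay below HF0, from -2.44 to -0.72 for S100a9 and from -2.46 to -1.18 for S100a8. HF4 over HF3 was -0.003 ± 0.30 for S100a9 and 0.21 ± 0.26 for S100a8. Camp, the neutrophil cathelicidin, had -0.14 and 0.00 in experiment 1 and -1.38 and -1.21 in experiment 2 (indirect -0.66 and -0.86, adjusted p = 0.152). Of 13 neutrophil genes 11 were negative on both arrays of experiment 1, against 24.4% of all features, and 6 on both arrays of experiment 2, against 17.9%. Lcn2, a lipocalin of neutrophils that epithelia also make, went the other way in experiment 2 with 1.45 and 0.09, and its indirect values were 1.24 and 0.67.

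Macrophage markers had negative fitted values for 27 of 29, against 57.5% of all features (median -0.29), with 0 past the threshold. Adgre1, a surface receptor gene of mature macrophages, had -0.02, -0.58, -0.37 and -0.67 (indirect -0.64 and -0.50, fitted -0.49 ± 0.15, adjusted p = 0.214). The lipid-associated macrophage gene Trem2 had -0.23, -0.60, -0.28 and -0.40 (indirect -0.61 and -0.76), and its signalling partner Tyrobp had -0.09, -0.67, -0.43 and -0.09. Cd68 and Itgax, which marks pro-inflammatory macrophages of obese fat, had at least one positive array each, 0.43 for Cd68 and 0.04 for Itgax. Mmp12, the macrophage elastase, had 0.67 and 0.09 in experiment 1 and -0.39 and -0.32 in experiment 2, with indirect values of -1.09 and -0.54.

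Lymphocyte genes mostly had negative fitted values, and 0 passed. B cell markers were negative on both arrays for 8 of 11 in experiment 1, against 24.4% of all features, and for 4 of 11 in experiment 2, against 17.9%, led by Cd79b of the B cell receptor (-0.31, -0.83, -0.12 and -0.82, indirect -0.27 and -0.89, fitted -0.55 ± 0.14, adjusted p = 0.115). T and NK cell markers had 16 of 17 negative fitted values, against 57.5% of all features (median -0.20), and were negative on both arrays for 12 of 17 in experiment 1 and 4 of 17 in experiment 2, with Ncr1, an NK cell receptor, at -0.50, -0.44, -0.32 and -1.08. The interferon genes Oas2 and Irf7 were negative on all 4 arrays, with fitted values of -0.50 ± 0.41 and -0.40 ± 0.23. The other immune lists also passed no gene. Antigen presentation genes had 16 of 17 negative fitted values (median -0.24), interferon response genes 14 of 18 (median -0.21), and mast cell and acute phase genes 6 of 8 and 6 of 9 (medians -0.17 and -0.07), against 57.5% of all features. The share of the acute phase genes was near that of all features.

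Cytokine genes repeated the conflict of experiment 1. Tnf, a main inflammatory cytokine, had -0.60 and -1.18 in experiment 1 and 0.29 and -0.57 in experiment 2, with indirect values of 1.38 and -0.36 (adjusted p = 1 for the fitted value). Il1b had -0.84, -1.37, 0.86 and -0.10 (indirect 1.89 and 0.04). The chemokine gene Cxcl10 had -1.35, -1.95, -0.38 and 0.65 (indirect 1.75 and -0.16), and Ccl4 had -1.18, -1.52, 0.49 and -0.17 (indirect 1.05 and 0.03). In the direct arrays of experiment 1 all of these were negative, and their indirect values there were all positive. Of the 28 cytokine and chemokine genes, 20 had opposite direct and indirect signs in experiment 1, and 5 in experiment 2, against 45.5% and 33.4% of all features. Il6 had 0.27, -0.31, 0.52 and 1.18, and Ccl2, a monocyte chemokine, had -0.09, -0.66, 0.85 and -0.87.

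In all, 963 features passed, or 4.21%, and 959 of these were positive. All 4 direct arrays were positive for 943 of the 959. Of the 959, 847 had a gene symbol, and 82 of those were in the sperm lists and 1 in the fat or immune lists. Over the 10 group values other than HF4, 899 of the 959 correlated above 0.5 with the mean of the sperm genes, as did 12.0% of all features. These group values are relative to HF0 and share arrays with the calls, so the count is a description and not a separate check. With the 4 direct arrays alone 0 features passed limma's test (2237 at an unadjusted p under 0.05). The calls rest on group values from all pairings and on the spread of STD, HF0, HF3 and HF4 between the experiments. Disagreement between the pairings of an experiment does not enter the SE or the p-value. The p-values measure the spread between experiments, which may be technical.

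The 4 negative calls were G0s2, Grb2, Rgl1 and Scamp5. Scamp5, a secretory vesicle membrane gene, had -0.14, -0.59, -0.33 and -0.85 (fitted -0.64 ± 0.12, adjusted p = 0.043). Rgl1, an exchange factor for Ral GTPases, had -0.16, -0.78, -0.02 and -0.52 (adjusted p = 0.0423), and the adaptor gene Grb2, named after its values were seen, had -0.32, -1.0, 0.03 and -0.61 (adjusted p = 0.0411). Without experiment 1 replicate 2, or against a change of at least 0.5 log2, 0 of these 4 passed, and 1 passed without experiment 2 replicate 1. Quantile and scale normalization each kept 2, with adjusted p = 0.0655 for Scamp5 under quantile and 0.0544 for Rgl1 under scale normalization. Kmo, of tryptophan breakdown, and the phosphatase gene Ptpn6 of blood cells were also negative on all 4 arrays without passing (fitted -0.68 ± 0.22 and -0.65 ± 0.20).

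Some genes with 1 sign on all 4 arrays did not follow the sperm genes over the other groups. With r between -0.5 and 0.5, 241 of 18617 genes with a symbol (1.29%) were positive on all 4 arrays and 102 (0.548%) negative at an unadjusted p under 0.05. Of these 343 genes 49 passed the adjusted threshold. Whether these genes are expressed in sperm was not tested, and an r in this range does not show it. Phospho2, a phosphatase gene, had 0.86, 0.37, 1.75 and 1.51 and passed (fitted 1.30 ± 0.19, adjusted p = 0.0199, r = 0.40), a call lost against a change of at least 0.5 log2 (adjusted p = 0.106). Epb41l2, a membrane skeleton gene, did not pass, with 1.20, 1.29, 2.20 and 2.34 (adjusted p = 0.0556), nor did Fgg, the fibrinogen gamma chain, with 1.56, 1.42, 0.45 and 0.80 (adjusted p = 0.316).

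**Figure D5:**
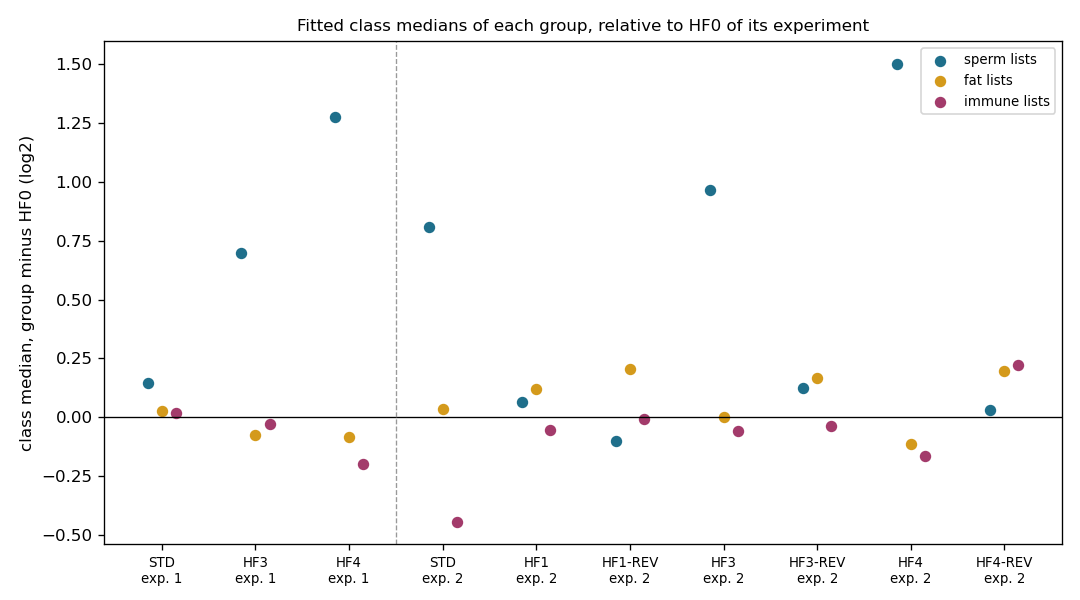
Median fitted log2 difference of the sperm, fat and immune lists (vertical axis) for each group relative to HF0 of its experiment, with experiment 1 left of the dashed line and experiment 2 right of it. The sperm median is 1.28 and 1.50 for HF4 and 0.70 and 0.97 for HF3, and lies at 0.03 for HF4-REV.

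In the fitted values HF3, the parent generation of HF4, stood between HF4 and HF0 for the sperm genes. In experiment 1 these values average pairings that disagree for the sperm genes (r = -0.72 for direct HF4 over HF3 against the path through HF0). Relative to HF0 the class median was 0.70 in HF3 and 1.28 in HF4 in experiment 1, and 0.97 and 1.50 in experiment 2. For HF4 over HF3 the median was 0.51 with 135 of 152 genes positive, against 11477 of all 22879 features. Clec2m stood at 1.90 ± 0.37 over HF3 and Prm2 at 0.52 ± 0.43. No feature passed for HF4 over HF3 in limma (0 of 22879, 1259 at an unadjusted p under 0.05), and a robust prior also gave 0. The count was 252 once the STD extract of experiment 2 was dropped. The comparisons with HF3 and HF0 share the HF4 arrays. The other groups of experiment 2 lay near HF0, with sperm medians of 0.06 in HF1, -0.10 in HF1-REV, 0.12 in HF3-REV and 0.03 in HF4-REV, but the STD extract had 0.81, and STD had 0.15 in experiment 1. HF4-REV shares its parents with HF4 but was fed the normal diet.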

How the data were processed

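Epididymal fat RNA was compared on 34 two-colour arrays, of which 4 pair HF4 with HF0. The authors deposited 1 log2 ratio per probe and array, 25344 probes in all, with no missing value. Base 2 is an assumption: the highest value is 7.99, while intensities of 16 bits allow 4.82 on a log10 scale. A natural log remains possible, so values were not turned into folds. The sources used here do not give the background correction, the normalization or the numerator dye. Labelling used Ambion reagents, per the labels. Without intensities, dim spots stayed in, and precision is limited by the number of arrays.

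Probes were named through the platform annotation, with 20456 symbols updated to the reference gene table, and probes of a gene were averaged (22879 features, 18617 with a symbol). Arrays were centred on their probe median, and dye swaps were averaged and turned to HF4 over HF0. Least squares gave a value of each group in each experiment, and limma 3.58.1 in R 4.3.3 tested these 12 values with the experiment as a block. There were 3 residual degrees of freedom and 3.16 from the prior, and p-values were adjusted by Benjamini-Hochberg over all features. On simulated data the test of HF4 over HF0 called 35 of 100 features changed by 1 log2 and 98 of 100 changed by 2. Of 22679 unchanged features it called 7. Most changes of 1 log2 were thus missed, and the simulated pairings added up, unlike those of experiment 1. Indirect values used the same least squares without the direct arrays. Tables and figures used Python 3.11.15, numpy 2.4.6, pandas 2.3.3, scipy 1.17.1 and matplotlib 3.10.9.

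The members and the 32 gene lists were chosen with earlier results of these data known. Genes eligible for naming were the 10 most extreme on each side past the threshold with 1 sign on all 4 arrays (topped up by values at an unadjusted p under 0.05), up to 5 passing and 4 other same-sign members per list, a fixed set of fat, immune and testis genes, the 8 fat or immune genes that differed most between the experiments, and 8 on each side with r between -0.5 and 0.5 to the sperm genes; not all are printed. Alternatives were centring, normalization, probe summary, prior, block, a minimum change, and leaving out arrays, experiments or the STD extract of experiment 2.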

Additional observations from a re-analysis of the deposited data

Results flagged for a closer look

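Both arrays of experiment 2 lay on one side of 0 and both arrays of experiment 1 on the other for 6 genes named in the text and for 1 list, a pattern met by 1419 of all features, or 6.2%. The difference between the experiments was not tested, and it is given as the dye swap mean of experiment 2 minus that of experiment 1. Spink8, a protease inhibitor gene of the epididymis singled out after its values were seen, differed by 3.97. Its arrays had 1.24 and 0.47 in experiment 2, and -3.0 and -3.24 in experiment 1, where its indirect value was 1.24. The steroid enzyme gene Cyp17a1 differed by 1.64 and the lipocalin gene Lcn2 by 1.21. The difference was -1.89 for Cd36, the fatty acid transporter gene, -0.73 for Mmp12 and -0.51 for Mest. The median of the Leydig cell markers differed by 0.38.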

How the results depend on the processing

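The 963 calls for HF4 over HF0 were 949 to 1353 without centring, with medians over probes, a robust prior, scale normalization or no experiment block, without the direct arrays or without the STD extract of experiment 2, and 793 with quantile normalization. Dropping the block left the class medians unchanged, because the group values were already centred within each experiment. It only added a residual degree of freedom, so its higher counts are no separate check. Testing against 0.5 log2 left 422 and the direct arrays alone gave 0. Taking each dye swap as an observation, chosen after seeing the data, gave 2294, including all 963, but counts pairings that share groups as independent. Leaving out 1 direct array gave 920 to 1016. For HF4 over HF3 the count was 0 in all settings but that without the STD extract of experiment 2, with 252, and 0 to 0 when 1 array was left out. Negative calls, 4 in the main setting, were 0 without experiment 1 replicate 2 or against 0.5 log2, 1 without experiment 2 replicate 1, 7 without experiment 1 replicate 1 or with scale normalization, 10 without experiment 2 replicate 2, 17 with quantile normalization, 26 without the direct arrays, 32 without the STD extract of experiment 2, 67 without the block and 429 with each dye swap as an observation. For the settings other than the block the cause was not tested.

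The sperm median, 1.49, was 1.277 in experiment 1 alone and 1.143 with quantile normalization, and 1.45 to 1.498 with 1 direct array left out. The fat median, -0.108, was -0.083 in experiment 1 alone, -0.166 with quantile normalization, -0.035 on the direct arrays alone and -0.181 without them, and -0.156 to -0.069 with 1 array left out. The immune median, -0.184, was -0.25 with quantile and -0.151 with scale normalization, -0.217 on the direct arrays alone and -0.233 with each dye swap as an observation, and -0.245 to -0.135 with 1 array left out. All these medians kept their sign.

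No named gene past the threshold turned its sign under an alternative tried. Among the others, the direct arrays alone turned Cidec to 0.298, Cd36 to 0.486, Agpat2 to 0.384, Mest to 0.095, Kdr to 0.506, Pecam1 to 0.451, Mmp12 to 0.014, Il1b to -0.36, Ccl2 to -0.193 and Cxcl10 to -0.761. Without them Gata4 was 0.034, Lep -0.2, Adipoq -0.295, Retn -0.291, Pparg -0.312, Plin1 -0.089, Pnpla2 -0.319, Lipe -0.212, Scd1 -0.788, Thrsp -0.098, Tnf 0.51, Ccl4 0.543 and Spink8 1.063. Quantile normalization gave Pparg -0.081, Scd1 -0.187, Ccl2 -0.018 and Cxcl10 -0.261, scale normalization Tnf 0.085 and Ccl4 0.093, and no centring Scd1 -0.002 and Cxcl10 -0.004. Each dye swap as an observation gave Ccl2 -0.006, Cxcl10 -0.082 and Spink8 0.172. With 1 direct array left out, Amh ran from -0.222 to 0.072, Lep from -0.017 to 0.293, Adipoq from -0.003 to 0.121, Pparg from -0.07 to 0.235, Plin1 from -0.051 to 0.132, Agpat2 from -0.035 to 0.032, Scd1 from -0.044 to 0.081, Tnf from -0.109 to 0.104, Ccl2 from -0.15 to 0.281, Cxcl10 from -0.112 to 0.145, Ccl4 from -0.109 to 0.056 and Spink8 from -0.13 to 0.061.

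No paired analysis was possible because the labels number no replicates across groups. With 2 experiments and no intensities, small differences and dim spots could not be judged.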
